A study of Mus musculus with 54 samples.

Results

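The genes described here are the muscle atrophy ligases, the FoxO transcription factors and myostatin, 9 genes in all: Trim63, Trim54, Trim55, Fbxo32, Fbxo30, Foxo1, Foxo3, Foxo4 and Mstn. They were picked by name for their known roles, but with earlier results of these data known. Each was measured by 1 probe set whose platform annotation gives that symbol alone, so that 9 of the 25917 probe sets and 9 of the 18759 gene symbols on the array are described. The study measured total RNA on 54 Affymetrix arrays, from 7 tissues of C57BL6 mice aged 14 weeks that swam or served as controls. The labels give the swimmers 9 days of acclimation, in which the daily session grew in steps of 10 min, and then 3 weeks of swimming in 2 sessions of 90 min per day with 4 h of rest between them. They also give an age at the start of 11 to 12 weeks, and sessions at 9 am and 3 pm. The controls carried the treatment label control, no group carried an engineered allele or a drug, and every group was of the same strain and age. Muscle had 4 control arrays (41 to 44) and 3 swim arrays (45 to 47), liver had 3 and 4, and the 5 remaining tissues, brain, spleen, kidney and the subcutaneous and visceral fat depots, had 4 and 4. The labels name neither the muscle that was taken, nor the sex of the mice, nor whether the tissues came from the same animals. They do not say that arrays of a group came from separate animals, so p-values measure the spread between these samples, and the number of arrays limits their precision.

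Muscle fibres break down their proteins largely through the ubiquitin-proteasome system, in which an E3 ligase picks the protein to be tagged. Trim63 (MuRF1) and Fbxo32 (atrogin-1, also MAFbx) are the ligases best known to rise when muscle wastes, and Fbxo30 (MUSA1) is another ligase of atrophy, whereas Trim54 (MuRF3) and Trim55 (MuRF2) are relatives of Trim63 that bind the sarcomere and microtubules. FoxO factors enter the nucleus when insulin or IGF-1 signalling through Akt is low, and there they switch on ligase and autophagy genes. Myostatin, encoded by Mstn, is a secreted protein of the TGF-beta family made mainly by muscle that restrains muscle growth.

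The promoters of Trim63 and Trim54 are shown: both genes read lower in the swimmers' muscle, and each window held a motif that was searched. Fbxo30 read lower there too, but its window, not printed, held none of the motifs named below. FoxO binding sites are part of how such ligases are known to be controlled. The sequences are from RefSeq, build GRCm38.p6, and hold the 250 bases before the annotated start, 5′ to 3′ on the gene's strand, chr4:134314870-134315119 on the plus strand for Trim63 and chr5:31116362-31116611 on the plus strand for Trim54. Capitals mark the FoxO core GTAAACA, here in its reverse complement TGTTTAC, and the E-box CAGCTG.
Trim63: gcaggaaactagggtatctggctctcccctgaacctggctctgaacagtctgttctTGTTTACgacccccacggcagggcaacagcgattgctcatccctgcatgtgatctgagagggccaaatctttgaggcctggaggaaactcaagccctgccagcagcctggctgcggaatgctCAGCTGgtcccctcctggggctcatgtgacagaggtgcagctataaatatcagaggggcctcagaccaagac
Trim54: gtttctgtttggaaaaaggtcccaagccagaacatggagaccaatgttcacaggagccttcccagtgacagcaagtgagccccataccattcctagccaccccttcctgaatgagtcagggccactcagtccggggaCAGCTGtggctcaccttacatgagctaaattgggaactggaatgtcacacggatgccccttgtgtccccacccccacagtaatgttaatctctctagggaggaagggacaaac
Windows of 6 of the 9 members were in the table (Trim63, Trim54, Fbxo30, Foxo1, Foxo3 and Mstn). Windows of Fbxo32, Trim55 and Foxo4 were not used here. Searched on both strands over 250 bases before and 50 bases after the start, GTAAACA was found in the Trim63 window alone among the 6, on the minus strand and starting 194 bases before the start. Of 32851 windows of the same length, 3.65% hold it, and 13.4% hold the shorter core TAAACA, which lies inside it and was found at the same place only. The E-box was found in the windows of Trim63, 72 bases before the start, and of Trim54, 113 bases before it, and 16.3% of all windows hold it. A match describes the letters and does not show that a factor binds there.

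The data put 6 of the 9 genes highest in muscle. Levels are log2(signal + 16) after quantile normalisation over all 54 arrays, are compared between tissues for 1 gene at a time, and are a description with no test. Trim63 averaged 11.46 ± 0.22 (SD, n = 4) in control muscle, and its next tissue mean was 4.93 ± 0.92 (SD, n = 3) in liver. Trim54 averaged 13.05 ± 0.10 (SD, n = 4) in control muscle against 5.75 ± 0.21 (SD, n = 4) in visceral fat, the next. Trim55 averaged 10.50 ± 0.15 (SD, n = 4) in control muscle against 4.84 ± 0.19 (SD, n = 3) in liver. In the 6 other tissues these 3 genes had control means with neighbours in the order that overlapped throughout, so no order can be given below muscle. Mstn had the same form, with 11.17 ± 0.25 (SD, n = 4) in control muscle and 5.26 ± 0.20 (SD, n = 4) in brain, the next, and overlapping neighbours after that. Deposited signals of Trim63, Trim55 and Mstn outside muscle never passed 39.9, 14.8 and 33.8, against 1611 or more, 1132 or more and 1937 or more in every muscle array.

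Fbxo32, Fbxo30 and the FoxO genes were measured in every tissue. Fbxo32 averaged 11.07 ± 0.38 (SD, n = 4) in control muscle, and visceral fat came next at 7.31 ± 0.07 (SD, n = 4), with no overlap on either side. Brain, spleen, subcutaneous fat and liver followed with overlapping neighbours, and kidney was lowest at 6.08 ± 0.05 (SD, n = 4). Fbxo30 stood at 8.53 ± 0.33 (SD, n = 4) in spleen and 8.47 ± 0.11 (SD, n = 4) in muscle, which overlapped, and both were above the other tissues. Foxo4, the only one of the 3 FoxO genes that was highest in muscle, averaged 8.88 ± 0.03 (SD, n = 4) there, 7.32 ± 0.18 (SD, n = 4) in visceral fat and 6.05 ± 0.02 (SD, n = 4) in brain, the lowest. Foxo1, known for its metabolic roles in liver and fat, had another order: visceral fat at 10.32 ± 0.24, spleen at 10.15 ± 0.06 and subcutaneous fat at 10.03 ± 0.25 (SD, n = 4 each) overlapped one after the other, muscle was sixth at 8.57 ± 0.19 (SD, n = 4) and brain last at 7.82 ± 0.15 (SD, n = 4). Foxo3 was highest in spleen at 8.95 ± 0.10 (SD, n = 4) and lowest in muscle at 7.50 ± 0.14 (SD, n = 4).

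**Figure D1:**
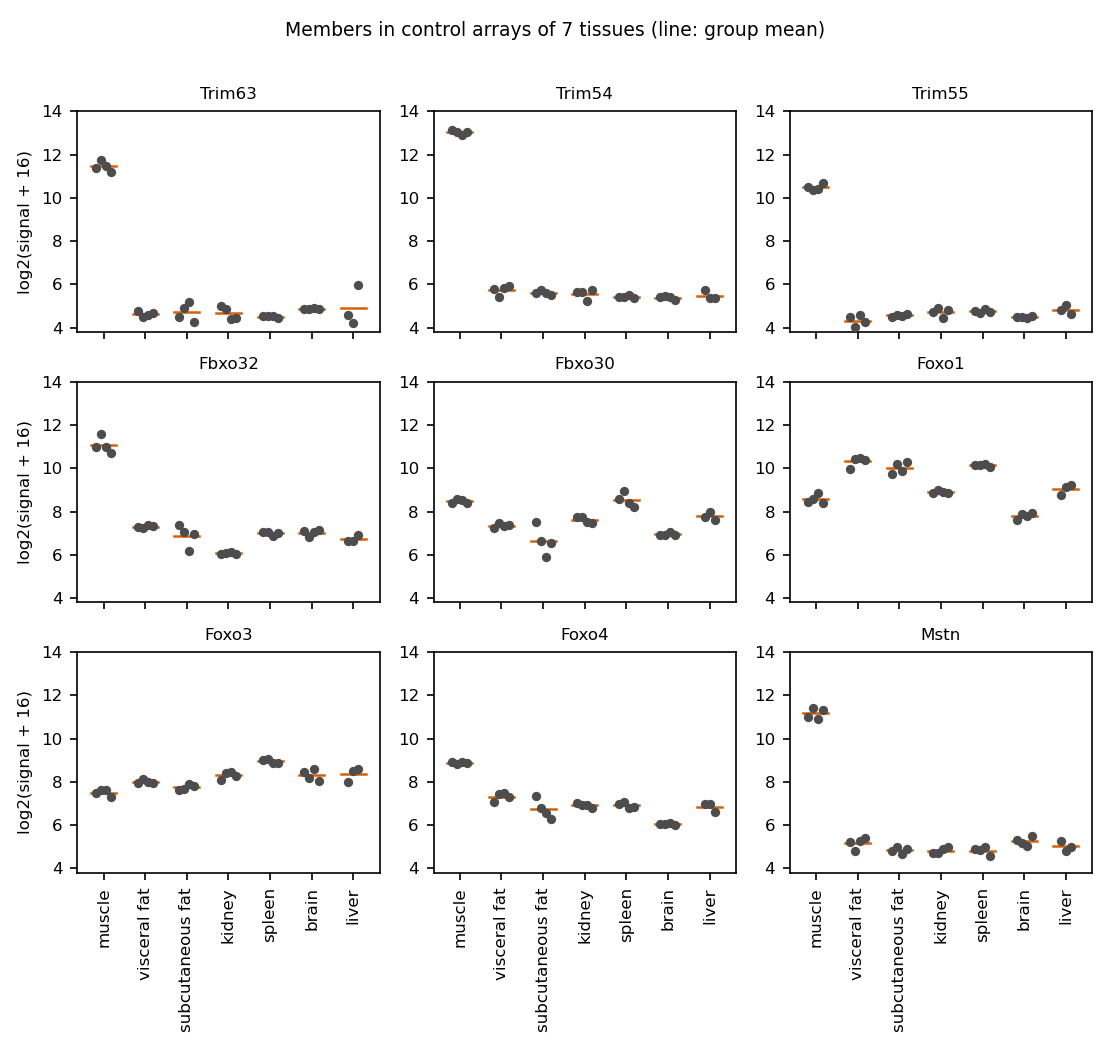
Control arrays of 7 tissues, 1 point per array and a line at the group mean, as log2(signal + 16) after quantile normalisation over all 54 arrays. Trim63, Trim54, Trim55, Mstn, Fbxo32 and Foxo4 sit highest in muscle, Fbxo30 overlaps between spleen and muscle, and Foxo3 is lowest in muscle at 7.50.

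Some arrays stood apart from their groups. The makeup of each array is read here from marker lists, on values normalised within the tissue. Summed signals, here and below, cover every matched marker of a list. Counts of markers that passed cover only those above the intensity floor. Among muscle arrays the slow myosin Myh7 read 5.02 in control 42 and 9.26 in swim 45, against 10.30 to 11.66 in the other 5, and the oxidative myosin Myh2 read 11.62 and 11.59 there against 12.41 to 12.96. The liver gene Alb read 11.30 in control 42 and 11.02 in swim 46. Summed hepatocyte markers were highest in these arrays, at 4237 in control 42 (group median 1003) and 4099 in swim 46 (group median 1548). All 14 muscle fibre markers were above the intensity floor in muscle, 0 of them passed the test, and their summed signal ran from 184704 to 190918 in controls and from 181834 to 188142 in swimmers, so the tissue label held. In liver, control 52 carried muscle RNA markers (Mb 10.33, Acta1 10.54) that the other 6 arrays read at 4.77 to 5.16 and 6.01 to 6.39. In subcutaneous fat, swim 22 read 15.24 for the kidney gene Umod, which the other 7 arrays read at 5.01 to 5.54, and swim 23 read 11.51 for the muscle gene Ckm, against 5.53 to 7.55. Lymphocyte markers were uneven there too, with a summed signal of B cell markers from 236.4 to 24152 in controls and from 160.4 to 10434 in swimmers, and of T cell markers from 112.8 to 10423 and from 140.5 to 4146.

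Among the 9 genes in muscle, 4 fell with swimming and none rose. The 4 that fell were the ligases Trim63, Trim54 and Fbxo30 and the transcription factor Foxo4. The ligase Fbxo32 had the lowest fold of the 9 and lay just outside the threshold. Foxo1, Foxo3, Trim55 and Mstn did not pass. At an unadjusted p under 0.05, 5 members were lower and 1, Foxo3, was higher, where 17.2% of all genes tested were lower and 14.3% higher. Every member was above the intensity floor (the lowest 40% of probe sets by mean were left out), so 9 of 9 were tested among 11347 genes, of which 5.68% were called higher and 5.68% lower at an adjusted p under 0.05 (limma, Benjamini-Hochberg over all genes tested). The members' median change was -0.33 on the log2 scale against -0.02 over all genes tested. Fold changes are on the log2(signal + 16) scale, normalised within the tissue, which understates the change of dim genes. In whole tissue, fewer cells of a type and less RNA per cell cannot be told apart.

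Trim63 read 11.46, 11.86, 11.55 and 11.28 in control arrays 41 to 44 and 10.97, 11.00 and 10.81 in swim arrays 45 to 47. All 3 swimmers lay below all 4 controls, and control 42 was the highest. Its level with swimming was 0.656 of control, a log2 change of -0.61 ± 0.13 (SE; 95% interval -0.91 to -0.31; adjusted p = 0.0283). The sarcomere-binding relative Trim54 read 13.58, 13.43, 13.35 and 13.47 in controls and 13.20, 13.12 and 13.05 in swimmers. Again no swim array reached a control array. Trim54 fell to 0.793 of control (-0.33 ± 0.07, SE; adjusted p = 0.0310). Trim55, the remaining relative, read 10.56, 10.41, 10.45 and 10.73 in controls and 10.66, 10.42 and 10.54 in swimmers. Its groups overlapped fully, with a log2 change of 0.00 and a 95% interval of -0.21 to 0.22 (adjusted p = 0.980).

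Fbxo32, the other classic atrophy ligase, read 11.04, 11.70, 11.06 and 10.73 in controls and 10.41, 10.49 and 10.32 in swimmers. All swimmers were below all controls, and the controls spread widely because control 42 was high. The fold was 0.605 of control (-0.72 ± 0.20, SE; 95% interval -1.18 to -0.27), with an adjusted p of 0.0522. Fbxo30 read 8.14, 8.40, 8.33 and 8.17 in controls and 7.62, 7.83 and 7.88 in swimmers. The groups did not overlap, and it fell to 0.715 of control (-0.48 ± 0.09, SE; adjusted p = 0.0227).

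Of the FoxO genes in muscle, Foxo4 passed the test and Foxo1 and Foxo3 did not. Foxo4 read 8.77, 8.69, 8.77 and 8.71 in controls and 8.23, 8.57 and 8.40 in swimmers. Its controls were tightly grouped, its swimmers lay below them, and it fell to 0.792 of control (-0.34 ± 0.08, SE; adjusted p = 0.0412). Foxo3 read 7.14, 7.28, 7.29 and 6.98 in controls and 7.39, 7.35 and 7.56 in swimmers. Here the swimmers were above every control, by 0.26 ± 0.09 (SE), and the gene did not pass (adjusted p = 0.109). Foxo1 read 8.22, 8.40, 8.68 and 8.19 in controls and 8.45, 8.62 and 9.15 in swimmers. Control 43 exceeded 2 of the 3 swimmers, swim 47 was the highest, and the difference of 0.37 (95% interval -0.05 to 0.79) had an adjusted p of 0.205.

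Mstn read 11.07, 11.52, 10.96 and 11.38 in control muscle and 11.29, 11.10 and 11.13 in the swimmers. The swim arrays fell inside the control range. The log2 difference was -0.06 with a 95% interval of -0.37 to 0.26 (adjusted p = 0.798). Without scaling, deposited Mstn signals were 2408 to 2774 in controls and 1937 to 2229 in swimmers, and the difference was -0.32, when the median of all genes was itself at -0.23.

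**Figure D2:**
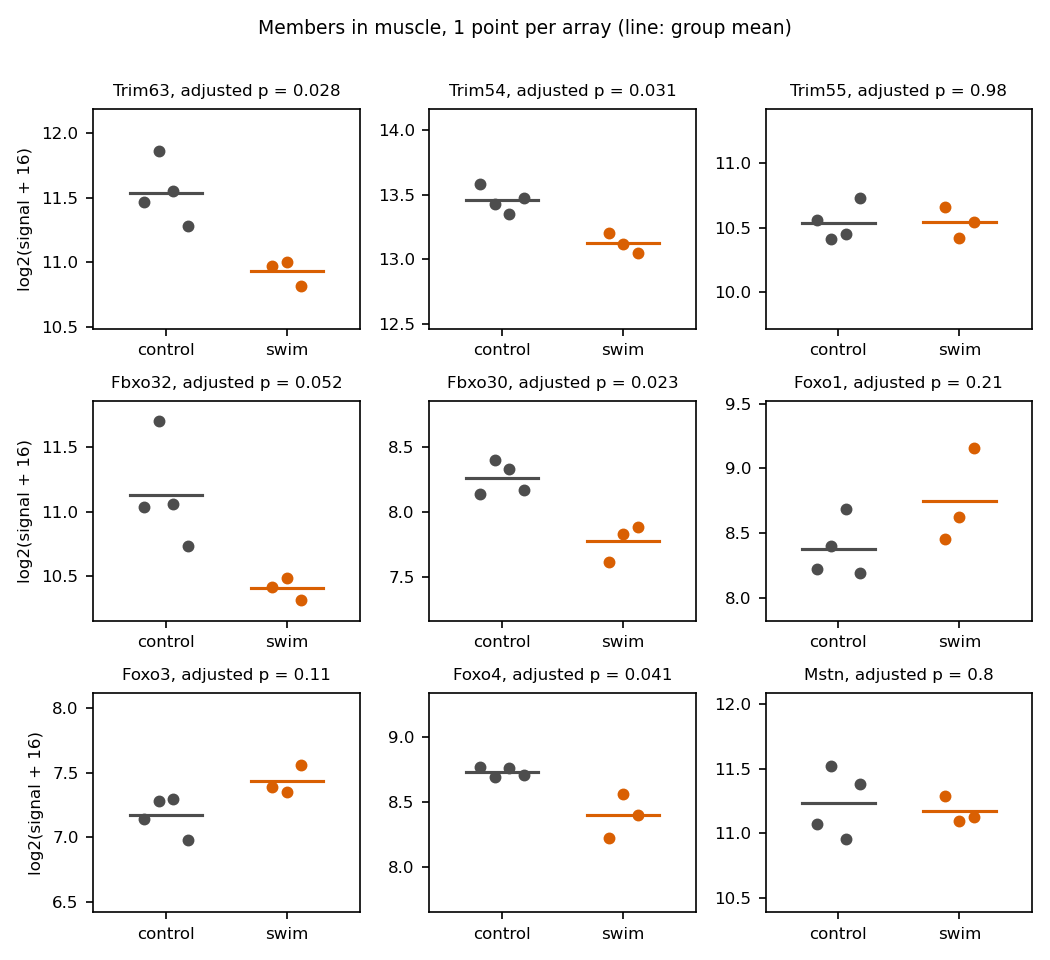
The 9 members in muscle, 1 point per array (4 control, 3 swim) and a line at the group mean, as log2(signal + 16) normalised within muscle, with panels of equal span. The swim points lie below every control point for Trim63, Trim54, Fbxo32, Fbxo30 and Foxo4, above every control point for Foxo3, and overlap for Trim55, Foxo1 and Mstn.

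The 5 lower genes stayed below control in each of the 20 alternative settings run in muscle, but many of these could not have shown otherwise. Changes of filter or probe set choice, robust settings and 1 fit of all arrays leave the difference of a member as it is. With groups that did not overlap, leaving out 1 array could hardly turn its sign either. The calls were close to the threshold, and single arrays moved them. Trim63 kept its fall (-0.50 to -0.70) when each array was left out, with adjusted p = 0.0582 without control 41, 0.0613 without control 43, 0.0823 without swim 46 and 0.0798 without swim 47. Trim54 lost its call without control 41 (0.0618), control 42 (0.0556), control 44 (0.0679), swim 46 (0.101) and swim 47 (0.0850), and Fbxo30 lost it without control 43 (0.0538) and swim 46 (0.0711). Foxo4 lost it whichever of the 7 arrays was left out (0.0570 to 0.0936), while Fbxo32 passed without control 42 (0.0332) and without control 44 (0.0493). Over all genes, 1289 were called with every array and 69 without swim 46. With values as deposited, the calls in muscle split into 89 higher and 304 lower, and with arrays centred on their medians into 211 and 679, against 645 and 644 in the fit above. The medians of all genes then lay at -0.23 and -0.11, and the 5 genes were lower than those medians (Trim63 -0.87 and -0.76, Trim54 -0.58 and -0.47, Fbxo32 -1.01 and -0.89, Fbxo30 -0.70 and -0.59, Foxo4 -0.58 and -0.47).

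Fibre type was uneven among the muscle arrays, so the values were also computed without the pair low in slow myosin, control 42 and swim 45, an alternative chosen after the data were seen. Trim63 was then -0.51 (adjusted p = 0.0396), Fbxo32 -0.53 (0.0468), Fbxo30 -0.36 (0.0489), Trim54 -0.37 (0.0593) and Foxo4 -0.27 (0.0798). With the mean of the slow fibre markers as a covariate, also added later, Trim63 was -0.60 (0.0132), Fbxo32 -0.72 (0.0209), Fbxo30 -0.48 (0.0226), Trim54 -0.33 (0.0281) and Foxo4 -0.34 (0.0289). Slow fibre markers numbered 8, of which 0 passed, and their summed signal ran from 4573 to 23362 in controls and from 5464 to 22693 in swimmers. Some markers of other cell types differed between the groups. Of 7 macrophage markers 3 were lower with swimming (summed signal 641.5 to 929.8 in controls, 583.2 to 647.2 in swimmers), and of 6 endothelial markers 1 was higher (2152 to 2480, then 2544 to 3410). Of 6 fibroblast markers 1 was lower (3087 to 4934, then 2744 to 3336), and of 6 adipocyte markers 0 passed (2192 to 4468, then 3368 to 6934). The 1 erythroid marker tested was higher (88.9 to 109.6, then 116.7 to 182.2). Of 6 hepatocyte markers 1 was higher (517.1 to 4237, then 1052 to 4099). The part of these cells in the members' values was not tested.

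**Figure D3:**
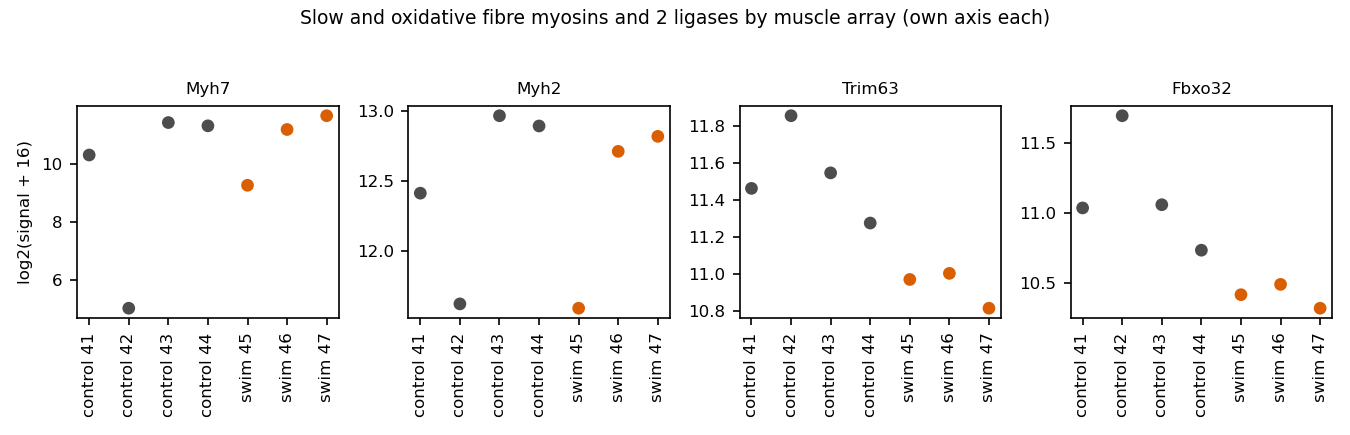
Myh7, Myh2, Trim63 and Fbxo32 in each muscle array as log2(signal + 16) normalised within muscle, each panel on its own axis, with control arrays grey and swim arrays orange. Control 42 is lowest for Myh7 at 5.02 and highest for both ligases, while swim 45, also low for both myosins, lies among the swimmers for both ligases.

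The 7 lists of related genes in muscle each held between 2 and 4 called genes, to be read against the 5.68% of all genes called in each direction. Among 24 tested genes of a list of other ubiquitin genes of muscle, 0 rose and 4 fell: Mdm2, the ligase of p53 (-0.36 ± 0.06, SE; adjusted p = 0.0173), Trim72, a membrane repair protein with a ligase domain (-0.53 ± 0.11; 0.0264), Trim32, a ligase for sarcomere proteins (-0.28 ± 0.06; 0.0305), and Asb2, an adaptor of a cullin ligase (-0.34 ± 0.09; 0.0413). Their list had a median of -0.03, close to that of all genes at -0.02. Among 23 FoxO target genes outside the members, 1 rose and 1 fell. Pdk4, the kinase that turns off pyruvate dehydrogenase, fell by 0.95 ± 0.20 (SE; adjusted p = 0.0267), and Eif4ebp1, a repressor of cap-dependent translation, rose by 0.39 ± 0.09 (0.0374). The median of that list was 0.05. Of 19 autophagy and lysosome genes, 3 fell and 1 rose, with a median of 0.03. Wipi1, which acts at the forming autophagosome (-0.47 ± 0.07; 0.0130), the lysosomal protease gene Ctsd (-0.26 ± 0.06; 0.0405) and the ATG8-family gene Gabarapl1 (-0.38 ± 0.10; 0.0495) fell, and Map1lc3b, another ATG8-family gene, rose by 0.25 ± 0.06 (0.0429).

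Upstream of FoxO, 3 of 21 tested genes rose and 1 fell, with a median of 0.07. Igf1r, the IGF-1 receptor, rose by 0.66 ± 0.09 (SE; adjusted p = 0.0105), and the acetyltransferases Ep300 (0.33 ± 0.06; 0.0206) and Crebbp (0.27 ± 0.07; 0.0410), which can acetylate FoxO proteins, rose too. Sirt3, a mitochondrial deacetylase, fell by 0.51 ± 0.07 (0.0110). In the myostatin pathway 0 of 22 tested genes rose and 2 fell, with a median of 0.05: Acvr2b, the receptor through which myostatin signals (-0.36 ± 0.09; 0.0377), and Nog, an antagonist of BMPs (-0.40 ± 0.07; 0.0163). Of 18 glucocorticoid-responsive genes, 2 rose and 0 fell, with a median of 0.10. Lcn2, an iron-siderophore carrier that is also an acute phase gene, rose by 2.41 ± 0.21 (0.00395), and the clock gene Per1 by 1.25 ± 0.27 (0.0289). Of 16 denervation and regeneration genes, Ankrd1, a stretch-responsive repeat protein, fell by 0.95 ± 0.19 (0.0252) and the histone deacetylase Hdac4 rose by 0.44 ± 0.10 (0.0295), with a median of -0.14.

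**Figure D4:**
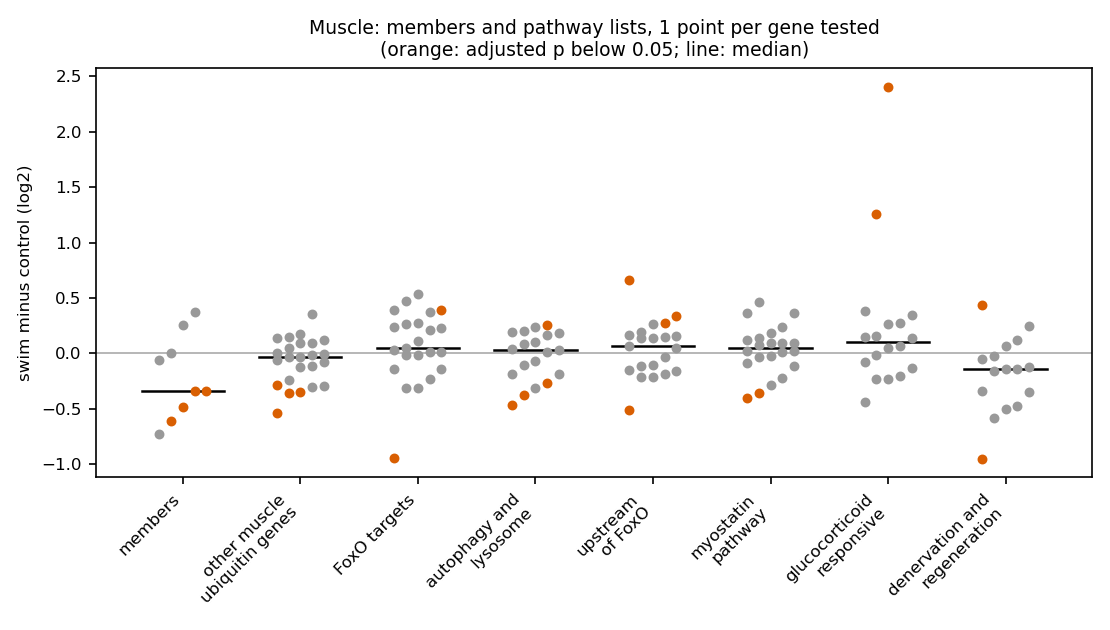
Swim minus control in muscle (log2) for the 9 members and the tested genes of 7 pathway lists, 1 point per gene, orange where the adjusted p is below 0.05, with a line at each median. The members' median lies at -0.33, and the medians of the lists lie between -0.14 and 0.10.

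Whether the change in muscle differed from that elsewhere was tested in 1 fit of the 14 group means over 14847 genes. The difference between the muscle effect and the mean effect of the other 6 tissues was called higher for 4.57% of genes and lower for 5.27%. Fbxo32 (-0.74 ± 0.15, SE; adjusted p = 0.00130) and Fbxo30 (-0.60 ± 0.19, SE; 0.0320) were lower by this test: their swim-minus-control values were -0.72 and -0.48 in muscle and averaged 0.01 and 0.11 over the others. The averages cover unlike tissues. Fbxo32 was above 0 in 3 of the 6 and at -0.38 in liver, or -0.30 without liver control 52, which carried muscle RNA markers. Fbxo30 was above 0 in 4 of the 6, at most 0.70 in subcutaneous fat, and at -0.40 in spleen. The values in liver, subcutaneous fat and spleen did not pass in their own tissue. Foxo4 (-0.24 ± 0.13, SE; 0.228), Foxo1 (0.20 ± 0.14; 0.393) and Foxo3 (0.17 ± 0.15; 0.514) did not pass. Trim63, Trim54, Trim55 and Mstn entered this fit through muscle alone, since they were under the intensity floor in the other 6 tissues, and no contrast is read for them. Fbxo30 lost its call with equal weights (0.153), with values as deposited (0.121), with quantile normalisation over all arrays (0.0932) and without subcutaneous fat (0.0786), and Fbxo32 kept it in each of those. The mean effect over the 6 other tissues was called higher for 12% of genes and lower for 13.4%. None of the 5 members measured outside muscle was among them by limma (Foxo1 alone had an unadjusted p under 0.05), and Foxo1 came nearest at 0.17 ± 0.07 (SE; 0.0679), with a positive change in 5 of the 6 tissues. An F test of any difference among the 7 tissues called 40.7% of genes, and Fbxo32 (0.000390), Foxo3 (0.00301), Foxo4 (0.0164) and Fbxo30 (0.0250) were among them, 4 of the 5 measured in all tissues.

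**Figure D5:**
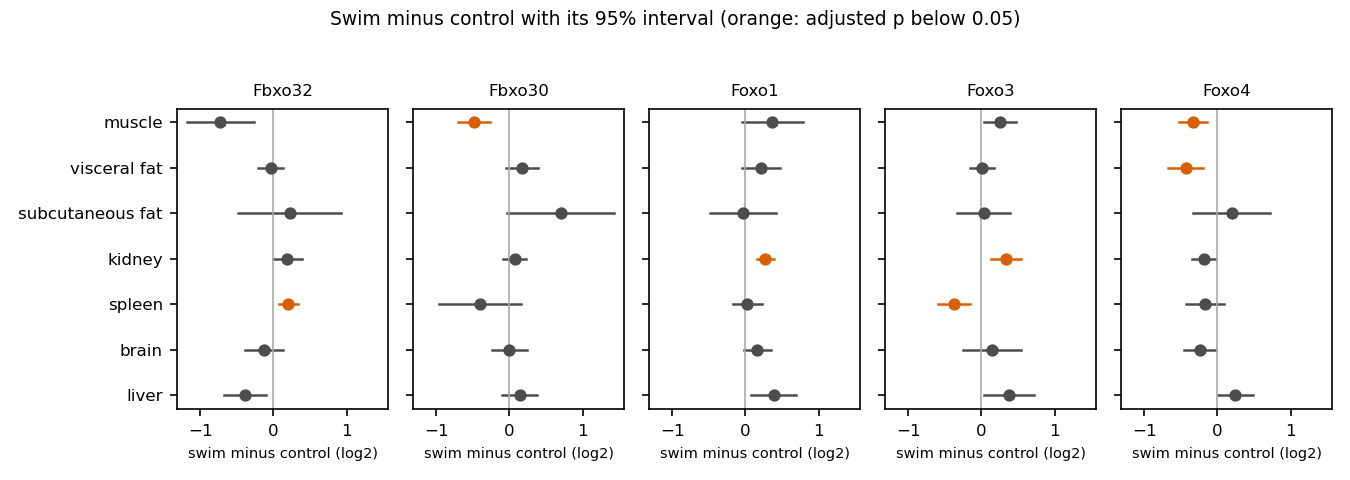
Swim minus control (log2) with its 95% interval in each of 7 tissues for the 5 members tested in all of them, orange where the adjusted p is below 0.05. Fbxo32 is lowest in muscle at -0.72, and Foxo3 is above 0 in kidney at 0.34 and below 0 in spleen at -0.37.

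Outside muscle, Trim63, Trim54, Trim55 and Mstn lay under the intensity floor in all 6 tissues, between percentile 1.4 and percentile 36.7 of probe sets, and had no test. Fbxo32, Fbxo30, Foxo1, Foxo3 and Foxo4 were tested in each, 5 of the 9. In liver control 52, where muscle markers were present, Trim63 read 5.74 against 4.24 to 4.58 in the other 6 liver arrays. The Trim63 level of liver controls above rests on that array.

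In kidney Foxo1 and Foxo3 rose. Among 11610 genes tested, 10.8% were called higher and 13.6% lower, and 2 of the 5 members were higher and 0 lower. Foxo1 read 8.95, 9.07, 8.99 and 8.92 in controls 9 to 12 and 9.25, 9.33, 9.16 and 9.26 in swimmers 13 to 16. Every swimmer was above every control, by 0.27 ± 0.05 (SE; adjusted p = 0.00551), and the call held without each array in turn. Foxo3 read 8.14, 8.48, 8.51 and 8.34 in controls and 8.62, 8.91, 8.61 and 8.69 in swimmers, again with no overlap. It rose by 0.34 ± 0.09 (SE; 0.0228), with an adjusted p of 0.0534 without control 12 and 0.0518 without swim 14. Fbxo32 (0.19; 0.155), Fbxo30 (0.07; 0.489) and Foxo4 (-0.18; 0.109) did not pass, although without swim 16 Fbxo32 was at 0.27 (0.0335) and without swim 14 Foxo4 was at -0.23 (0.0442). With values as deposited neither rise passed (Foxo1 0.35, Foxo3 0.45, both with an adjusted p of 0.9997), and calls over all genes split into 28 higher and 14 lower, against 735 and 2056 with median-centred arrays and 1258 and 1578 in the fit above.

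In the same kidneys, 8 of 19 genes upstream of FoxO rose and 0 fell, with a median of 0.13 against 0.00 for all genes. Those of smallest p were the acetyltransferases Ep300 (0.41 ± 0.05, SE; adjusted p = 0.000627) and Crebbp (0.26 ± 0.05; 0.00328) and the PI3-kinase subunit genes Pik3r1 (0.36 ± 0.05; 0.00133) and Pik3ca (0.24 ± 0.05; 0.00562). FoxO targets split, with 3 higher and 4 lower of 25. Among the lower were Gadd45a, a growth arrest gene (-0.43 ± 0.08; 0.00564), and Igfbp1, a binding protein of IGFs (-0.89 ± 0.21; 0.0125). Klf15, a FoxO-linked metabolic regulator, rose by 0.41 ± 0.08 (0.00588). Autophagy and lysosome genes had 2 higher and 6 lower of 19. Macrophage markers fell in kidney (5 of 6 tested; summed signal 1221 to 1397 in controls and 807.0 to 979.2 in swimmers), as did 3 of 5 fibroblast markers while 1 rose (966.4 to 1097, then 911.2 to 1093), and 2 of 6 endothelial markers rose (3138 to 3519, then 3525 to 3800). The part of these cells in the members' values in kidney was not tested.

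In spleen Foxo3 fell and Fbxo32 rose. Of 11356 genes, 7.04% were higher and 6.97% lower, and of the 5 members 1 was higher and 1 lower. Foxo3 read 8.87, 8.93, 8.78 and 8.75 in controls 25 to 28 and 8.54, 8.69, 8.33 and 8.26 in swimmers 29 to 32. All swimmers were below all controls, and the gene fell by 0.37 ± 0.10 (SE; adjusted p = 0.0357). Fbxo32 read 7.15, 7.15, 6.96 and 7.10 in controls and 7.29, 7.32, 7.33 and 7.24 in swimmers, without overlap, and rose by 0.20 ± 0.06 (SE; 0.0437). Neither call was firm. Fbxo32 lost its call whichever array was left out (0.0571 to 0.0995) and was at -0.07 with values as deposited, and Foxo3 kept its call only without swim 29 (0.0477) or swim 30 (0.0159), with 0.0606 to 0.0905 without any other array. Without swim 30, Fbxo30 was at -0.64 (0.0314), against -0.40 (0.276) with it. Calls over all genes split into 66 higher and 5061 lower with values as deposited and 281 and 1350 with median-centred arrays, against 799 and 792, and the median of all genes was at -0.27 as deposited.

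The 7 macrophage markers tested in spleen all fell, with a summed signal of 5185 to 5773 in controls and 3052 to 4656 in swimmers, 2 of 5 T cell markers rose (4364 to 4763, then 4713 to 6277), and 2 of 6 endothelial markers fell (1728 to 1927, then 1594 to 1738). Their part in the values of Foxo3 and Fbxo32 was not tested. Among FoxO targets 0 of 21 rose and 3 fell: Angptl4, an inhibitor of lipoprotein lipase (-1.005 ± 0.11, SE; adjusted p = 0.00491), Pnpla2, the lipase of stored fat (-0.38 ± 0.06; 0.00831), and Eif4ebp1 (-0.39 ± 0.08; 0.0182). Upstream of FoxO 1 of 19 rose, Pik3ca (0.21 ± 0.05; 0.0278), and 3 fell, including Akt2 (-0.23 ± 0.06; 0.0308) and Igf1 (-0.32 ± 0.08; 0.0317).

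In visceral fat Foxo4 fell. Controls 1 to 4 read 7.12, 7.47, 7.54 and 7.34 and swimmers 5 to 8 read 6.93, 6.80, 6.92 and 7.09. The groups did not overlap, though control 1 and swim 8 were close, and Foxo4 was at 0.740 of control (-0.43 ± 0.11, SE; adjusted p = 0.0170). The call held without each array in turn (0.00878 to 0.0475), and not with values as deposited (-0.39; 0.334). Among 11463 genes 11.3% were higher and 12.1% lower, and of the 5 members 0 were higher and 1 was lower. With median-centred arrays the calls over all genes split into 697 higher and 4512 lower, against 1295 and 1382. Foxo1 read 10.08, 10.59, 10.62 and 10.54 in controls and 10.69, 10.62, 10.65 and 10.72 in swimmers. Its swimmers were just above the controls, of which control 1 was far below the rest, and the difference of 0.21 had an adjusted p of 0.205. That difference was 0.09 without control 1, -0.22 with median-centred arrays and -0.10 with values as deposited. Fbxo32 (-0.04), Fbxo30 (0.17) and Foxo3 (0.01) did not pass. Of 20 genes upstream of FoxO 5 rose and 1 fell, with Crebbp (0.36 ± 0.07, SE; adjusted p = 0.00910) and Rictor, a part of the kinase complex that activates Akt (0.31 ± 0.07; 0.0114), among the rises and Igf2 the fall (-0.70 ± 0.17; 0.0164). FoxO targets had 4 higher and 2 lower of 23, the insulin receptor gene Insr among the higher (0.45 ± 0.10; 0.0135). Endothelial markers rose in 5 of 6 (summed signal 3237 to 3840 in controls, 4598 to 5193 in swimmers), macrophage markers in 2 of 7, and their part in the Foxo4 value was not tested.

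Liver had no member past the threshold, while 1.84% of 11203 genes were higher and 2.16% lower. At an unadjusted p under 0.05 there were 4 of the 5, with Fbxo32 lower and Foxo1, Foxo3 and Foxo4 higher, against 21.4% of all genes tested (10.2% higher and 11.2% lower). Foxo4 was higher by 0.25 (95% interval 0.01 to 0.49, adjusted p = 0.222), and its groups overlapped. Fbxo32 read 6.35, 6.37 and 6.63 in controls 49, 50 and 52 and 6.25, 6.01, 6.20 and 5.80 in swimmers 53 to 56, with no overlap and a difference of -0.38 (95% interval -0.67 to -0.10; adjusted p = 0.125). Control 52, the highest of these controls, carried muscle RNA markers, and Fbxo32 is far higher in muscle than in liver. Without control 52 the Fbxo32 difference was -0.30 (adjusted p = 0.232). The part of muscle RNA in it was not tested. Foxo1 read 8.72, 9.16 and 9.28 in controls and 9.36, 9.41, 9.58 and 9.41 in swimmers, above every control, with a difference of 0.39 (95% interval 0.08 to 0.69; 0.139). Foxo3 read 7.88, 8.43 and 8.55 in controls and 8.77, 8.64, 8.61 and 8.65 in swimmers, with a difference of 0.38 (95% interval 0.04 to 0.72; 0.190). Control 49 was the lowest of the controls for Foxo1 and Foxo3, and without it the differences were 0.22 for Foxo1 and 0.18 for Foxo3. Of 7 macrophage markers in liver 6 fell (summed signal 3400 to 3536, then 1713 to 2420), and their part was not tested. Among 24 FoxO targets 0 passed, the nearest being Lpin1, a phosphatidate phosphatase (1.85 ± 0.45, SE; adjusted p = 0.0591), and Ccng2, a cyclin known as a FoxO target (-0.35 ± 0.09; 0.0693).

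Subcutaneous fat called 0% of 11548 genes higher and 0% lower by limma, where 1206 and 1283 had an unadjusted p under 0.05, and none of those was a member. Fbxo30 had the largest difference of the 5 members, 0.70 (95% interval -0.03 to 1.44; adjusted p = 0.239), with controls at 7.56, 6.74, 5.99 and 6.65 and swimmers at 7.75, 7.31, 7.11 and 7.58. Control 17 lay among the swimmers. Without it the fit called 3976 of all genes, against 0 with every array, and the Fbxo30 difference was 0.96 (0.0228). Without swim 22 and 23, the arrays with kidney and muscle markers, it was 0.92 (0.288). The same control 17 was the control lowest in B and T cell markers (236.4 and 112.8), the median differences of these lists were -2.41 and -2.003 with 0 of 5 and 0 of 5 called, and that of 7 macrophage markers was -0.92 with 0 called (3703 to 7697 in controls, 2284 to 3248 in swimmers). Their part in the Fbxo30 value was not tested. Brain called 0.43% of 11621 genes higher and 0.0516% lower, with 0 of 5 members (limma; 1 at an unadjusted p under 0.05, as had 16.3% of all genes tested). That was Foxo4, with a difference of -0.24 (95% interval -0.46 to -0.01; adjusted p = 0.284). Of the 7 pathway lists, 0 genes passed in brain or in subcutaneous fat. Those of smallest adjusted p over both tissues were Igf1r (0.30 ± 0.07, SE; adjusted p = 0.0933) and Per1 (0.48 ± 0.09; 0.0641), each in brain.

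Genes whose deviations from their own group means followed a member across the 54 arrays are given as a description, with no p, since arrays of a tissue share their normalisation and the highest of many genes are named. Among 8569 genes above the floor in all 7 tissues, Fbxo32 was followed by Vcp (Pearson r = 0.77), Gars (0.76) and Wrn (0.73), Foxo1 by Helz (0.66), Ankrd11 (0.65) and Rptor (0.63), and Foxo3 by Pxn (0.62), Fnip2 (0.61) and Vamp8 (0.58). No such genes are given for Trim63 and Mstn, which were under the floor in all arrays outside muscle. Groups with a wide spread weigh most in these r values. Fbxo32 had its largest SD in subcutaneous fat (0.48 in controls, 0.47 in swimmers), where the arrays were uneven in makeup.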

How the data were processed

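The submitters' processing notes name PLIER and limma, without settings; versions and genome build are not given in the sources used here. What the authors deposited was a linear intensity for every probe set. Upper quartiles of arrays in a group differed by up to 1.89-fold, so log2(signal + 16) was quantile-normalised within each tissue. Probe sets took their names from the platform annotation; those with no symbol or several were dropped. So was the lowest 40% by mean in a tissue, and a gene was represented by its brightest probe set.

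Swim was compared with control in 1 limma 3.58.1 fit per tissue (lmFit, eBayes; R 4.3.3), two-sided, with Benjamini-Hochberg adjustment over all genes and a threshold of 0.05. The comparison across tissues used all 54 arrays, 14 group means and array weights per tissue. Robust fits needed statmod 1.5.0, and plots were drawn in matplotlib 3.10.9. The scripts were tested on simulated data. Replicate numbers in the labels are unique to each array, so none pairs arrays.

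The members, the 7 pathway lists, the 14 marker lists (263 names, 243 matched) and the tests were chosen with earlier results of these data known. Named were all members, and from each pathway list per tissue up to 4 called genes of smallest p, or 2 where none passed; the text gives a part. Alternatives covered scaling, pseudocount, filter, probe set choice, array weights, robust fits, 1 fit of all arrays and each array left out.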

Additional observations from a re-analysis of the deposited data

Results flagged for a closer look

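Of 108 groups of 4 arrays in which a member was tested for a sample far from the others, 4 had one, and chance alone picks about 1 in 20 such groups. Trim63 in spleen control 28 was at 4.48 against 4.58 in the other 3, and Trim54 in kidney swim 13 was at 5.30 against 5.59 to 5.62, both under the intensity floor. Fbxo30 in brain control 35 was at 7.33 against 7.23 to 7.24. Foxo1 in visceral fat control 1 was at 10.08 against 10.54 to 10.62.

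Tests of the difference itself separated tissues for 4 members. The effect in muscle differed from the mean effect of the other 6 tissues for Fbxo32 (-0.74; adjusted p = 0.00130) and Fbxo30 (-0.60; adjusted p = 0.0320), with muscle lower in both. The effects of the 7 tissues differed for Fbxo32 (adjusted p = 0.000390), Foxo3 (0.00301), Foxo4 (0.0164) and Fbxo30 (0.0250), each by limma's F test, which called 40.7% of all genes. Foxo3 had an effect of 0.34 in kidney and -0.37 in spleen, and Foxo4 had -0.43 in visceral fat and 0.25 in liver. That pair of tissues was not tested apart for either gene.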

How the results depend on the processing

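Of 750 values of the members under alternative settings, 12 moved beyond the spread, 57 lost a call, 19 gained one and 1 called value changed sign: Fbxo32 in spleen, at -0.066 with values as deposited; the cause was not tested. The 750 include settings of filter, probe set choice, robust fits and 1 fit of all arrays. Those leave the log2 value of a member as it is, so they could change its call but not move it or its sign. A further 40 changed sign without passing the threshold in either setting, among them Foxo1 in visceral fat (0.21 to -0.22 with median-centred arrays). The count of members lower in muscle, 4, became 2 without a filter and 1 in 1 fit of all 54 arrays (Fbxo32, none of the 4), and 0 to 3 with 1 array left out. The single fall in visceral fat became 0 as deposited. In subcutaneous fat, members higher went from 0 to 1 with array weights and in 1 fit, and were 0 to 1 with 1 array left out. Array weights called 5715 and 1 fit called 6626 of the 11548 genes tested there, and 3976 genes were called without control 17, against 0 in the main fit. In kidney, members higher went from 2 to 0 as deposited and in 1 fit, and were 1 to 3 with 1 array left out, with 0 to 1 lower. In spleen the 1 member higher became 0 as deposited, median-centred, without a filter, with the 20% filter, with trend and robust settings, in 1 fit and with any array left out, and the 1 lower became 3 as deposited and 0 without a filter or in 1 fit, and 0 to 2 with 1 array left out. Array weights gave 1 higher and 1 lower in brain, where they called 3122 of 11621 genes, against 56 in the main fit. Members called for muscle minus the other tissues, 2, became 1 with equal weights, as deposited, with quantile normalisation over all arrays and without subcutaneous fat. For the mean of the other tissues, 0 became 2 with equal weights (Foxo1 and Trim63, the latter under the intensity floor in all 6) and 2 without subcutaneous fat (Foxo1 and Foxo4).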
